A study of Homo sapiens with 6 samples.

Results

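The cadherin superfamily was followed in SNU-449 cells, a long-established line grown from a human liver cancer (hepatocellular carcinoma), as protein-coding genes whose symbols begin with CDH or PCDH and a number or a cluster letter, together with FAT1 to FAT4, DCHS1, CELSR1 to CELSR3, DSC2, DSC3 and DSG2. The rule found 100 genes among the 58219 gene identifiers counted. It read symbols and gene type and no measured value. PolyA RNA was sequenced in 3 libraries of cells stably expressing the tyrosine kinase Yes with the gatekeeper change T348I (Yes T348I) and in 3 libraries of cells stably expressing wild-type Yes (Yes WT). All 6 libraries were from cells given the SRC and ABL family inhibitor dasatinib at 100 nM, and cells without the drug were not analysed here. Whether either line is 1 clone is not in the labels. Nor do they tell if the libraries of a line are from separate cultures, and every p-value here covers no more than the spread among these 6 libraries, technical or not.

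Cadherins are calcium-dependent adhesion proteins whose extracellular repeats bind cadherins of a neighbouring cell. The classical members, such as E-cadherin (CDH1) and N-cadherin (CDH2), are joined inside the cell to actin by catenins. Desmocollins and desmogleins are the cadherins of desmosomes and are joined to intermediate filaments by plakoglobin, plakophilins and desmoplakin. FAT, Dachsous and CELSR proteins are very large members with roles in planar cell polarity and, for the fly forms of FAT and Dachsous, in Hippo signalling. The protocadherins of the alpha, beta and gamma clusters lie in tandem on chromosome 5 and are best known from neurons, where each cell uses its own set of them.

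Reads summed over genes came to 14392286 to 19608763 counts in Yes T348I and 14360137 to 16117573 counts in Yes WT. YES1, the introduced gene, was transcribed in both lines, with 382.5, 411 and 435 CPM (counts per 1e6 counts, libraries scaled to each other) in Yes T348I and 357, 368 and 367 CPM in Yes WT (log2 fold change 0.17, SE 0.04, edgeR adjusted p = 9.94e-05). These reads can come from the native gene too and do not show the mutation. Reads on no annotated exon were 6.37% to 6.86% of uniquely mapped reads in Yes T348I and 7.40% to 7.87% in Yes WT. That share was lower in Yes T348I in all 3 libraries, and its part in the results was not tested. In bulk RNA, fewer cells that use a gene and less RNA per cell cannot be told apart.

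Of the 100 genes, 48 had enough counts to be tested. With Benjamini-Hochberg adjustment over all genes tested, 3 of the 48 were higher in Yes T348I and 26 were lower (edgeR quasi-likelihood test, adjusted p under 0.05). The shares were 6.25% higher and 54.2% lower among the tested members, against 28.0% higher and 27.3% lower among all 14723 genes tested. Members called in either direction made up 60.4% of those tested, near the 55.3% over all genes. For 32 of the 48 (66.7%) the libraries of the lines did not overlap, against 59.5% of all genes tested. Lack of overlap was thus common in these data and is given below as description. The median log2 fold change of the 48 was -0.28, against -0.01 over all genes tested. Of the 48, 1 gene (PCDHA4) passed the low-count filter through Yes WT alone. At least 2-fold changes were rare, with 2 members lower and none higher, 4.08% of all genes tested being past that limit in either direction.

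**Figure D1:**
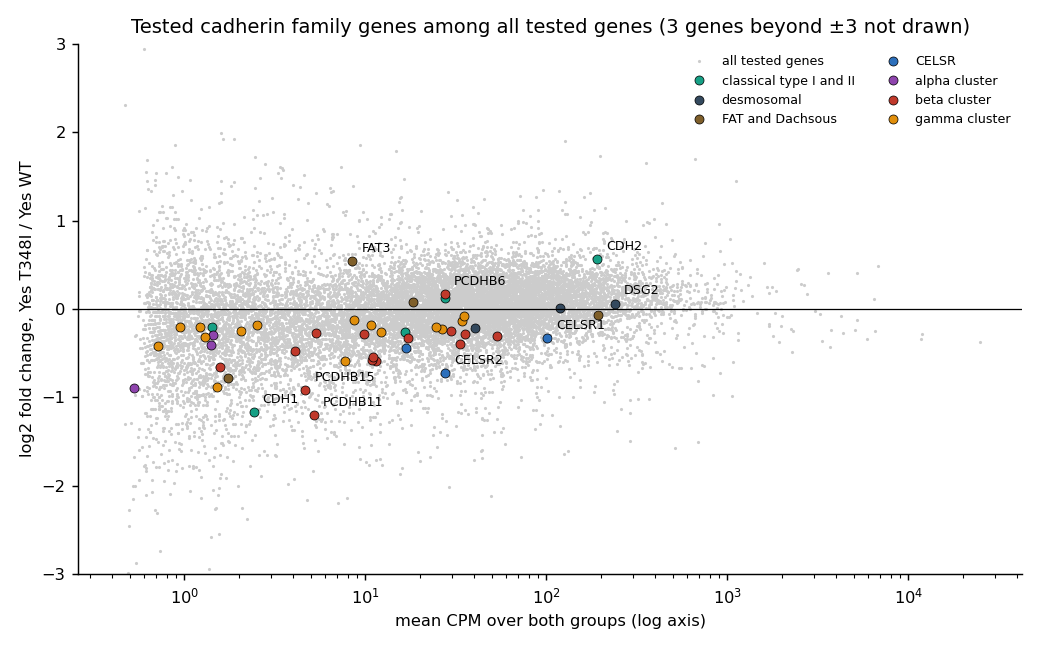
Log2 fold change (Yes T348I over Yes WT, vertical) against the mean CPM over both groups (horizontal, log axis) for all tested genes in grey and the 48 tested cadherin family genes in colour by class. Most coloured points lie below 0, with CDH2 at 0.57 and FAT3 at 0.54 above it and PCDHB11 (-1.19) and CDH1 (-1.16) lowest among the genes named.

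Few genes carried most of the family's reads. DSG2, FAT1, CDH2, DSC3 and CELSR1 together held 60.8% to 61.8% of the family's counts in Yes T348I and 55.3% to 55.7% in Yes WT. Per kilobase of exon, DSG2 and CDH2 had the highest levels, with 39.5 CPM per kilobase in Yes T348I and 37.8 in Yes WT for DSG2, and 46.0 in Yes T348I and 31.0 in Yes WT for CDH2. CDH2 stood above DSG2 in Yes T348I and below it in Yes WT. DSC3 and PCDHB5 came after them, in the other order in Yes WT than in Yes T348I, and then PCDHB8. DSC3 had 16.9 CPM per kilobase in Yes T348I and 16.8 in Yes WT, PCDHB5 had 14 in Yes T348I and 17.2 in Yes WT, and PCDHB8 had 12.7 in Yes T348I and 15.4 in Yes WT. The 3 desmosomal genes supplied 27.4% to 28.9% of the family's counts in Yes T348I and 26.7% to 27.1% in Yes WT. The beta protocadherin cluster supplied 16.3% to 16.4% in Yes T348I and 19.6% to 19.8% in Yes WT.

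**Figure D2:**
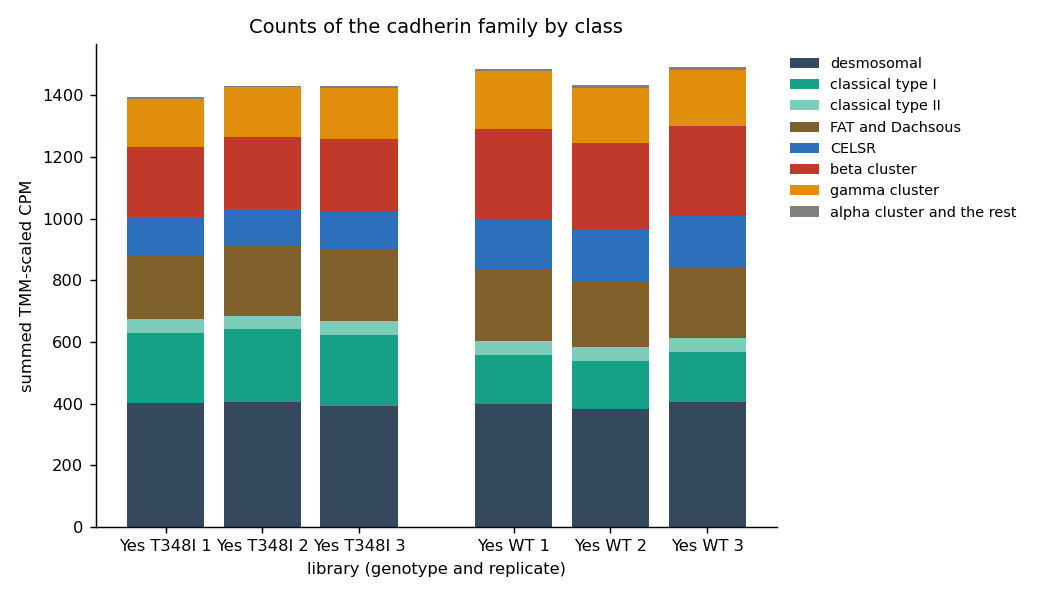
Summed CPM (vertical) of the cadherin family by class in each of the 6 libraries (horizontal), Yes T348I on the left and Yes WT on the right. The classical type I segment, nearly all CDH2, is 228 to 235 CPM in Yes T348I and 154 to 162 CPM in Yes WT, while the CELSR, beta and gamma segments are smaller in Yes T348I.

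Among the classical cadherins, N-cadherin was higher and E-cadherin lower in Yes T348I. CDH2 (ENSG00000170558.8, GRCh38 chromosome 18, 27950966 to 28177446, minus strand), the cadherin typical of mesenchymal and neural cells, had 224, 231 and 228 CPM in Yes T348I and 154.5, 150.0 and 155 CPM in Yes WT. Every Yes T348I library lay above every Yes WT library, and the log2 fold change was 0.57 (SE 0.03, adjusted p = 5.87e-18), or 48.4% higher. It had the lowest adjusted p of the family. CDH1 (ENSG00000039068.18, chromosome 16, 68737225 to 68835548), the cadherin of epithelia, rested on few reads, with 32, 24 and 16 counts in Yes T348I and 49, 45 and 59 counts in Yes WT. That gave 1.64, 1.65 and 1.13 CPM in Yes T348I and 2.99, 3.11 and 3.95 CPM in Yes WT, again without overlap (log2 fold change -1.16, SE 0.21, adjusted p = 8.46e-06).

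The ratio of the pair was higher in every Yes T348I library. Per kilobase of exon, CDH2 stood above CDH1 by 170, 175 and 252 times in Yes T348I and by 64.4, 60.1 and 49.1 times in Yes WT. With CDH2 higher and CDH1 lower in every Yes T348I library, the ratio could not overlap between the groups. The exact two-sided permutation test was thus bound to give p = 0.10, the smallest that 3 against 3 libraries allow. It adds nothing to the results of each gene. P-cadherin (CDH3), which lies beside CDH1, had 1.79, 1.03 and 1.06 CPM in Yes T348I and 1.77, 1.18 and 1.67 CPM in Yes WT and did not pass (adjusted p = 0.53). R-cadherin (CDH4) and M-cadherin (CDH15) had at most 11 counts in any library.

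Of the 13 classical type II cadherins only CDH6 and CDH24 had enough counts to be tested. CDH6, or K-cadherin, known from fetal kidney and kidney cancer, had 15.3, 13.2 and 16.8 CPM in Yes T348I and 17.7, 18.9 and 17.6 CPM in Yes WT (log2 fold change -0.26, SE 0.08, adjusted p = 0.0078). Without Yes T348I replicate 2, its lowest library, CDH6 did not pass (log2 fold change -0.17, adjusted p = 0.076). CDH24 had 29.02, 28.1 and 28.7 CPM in Yes T348I and 25.2, 26.1 and 27.4 CPM in Yes WT, which did not overlap, but its log2 fold change of 0.13 did not pass (adjusted p = 0.078). The other type II genes, among them the vascular endothelial CDH5 and the osteoblast cadherin CDH11, had at most 5 counts in any library. The 5 remaining cadherins, CDH13, CDH16, CDH17, CDH23 and CDH26, had at most 4. CDH13 and CDH17, the T-cadherin and liver-intestine cadherin genes, reached no more than 3 counts.

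**Figure D3:**
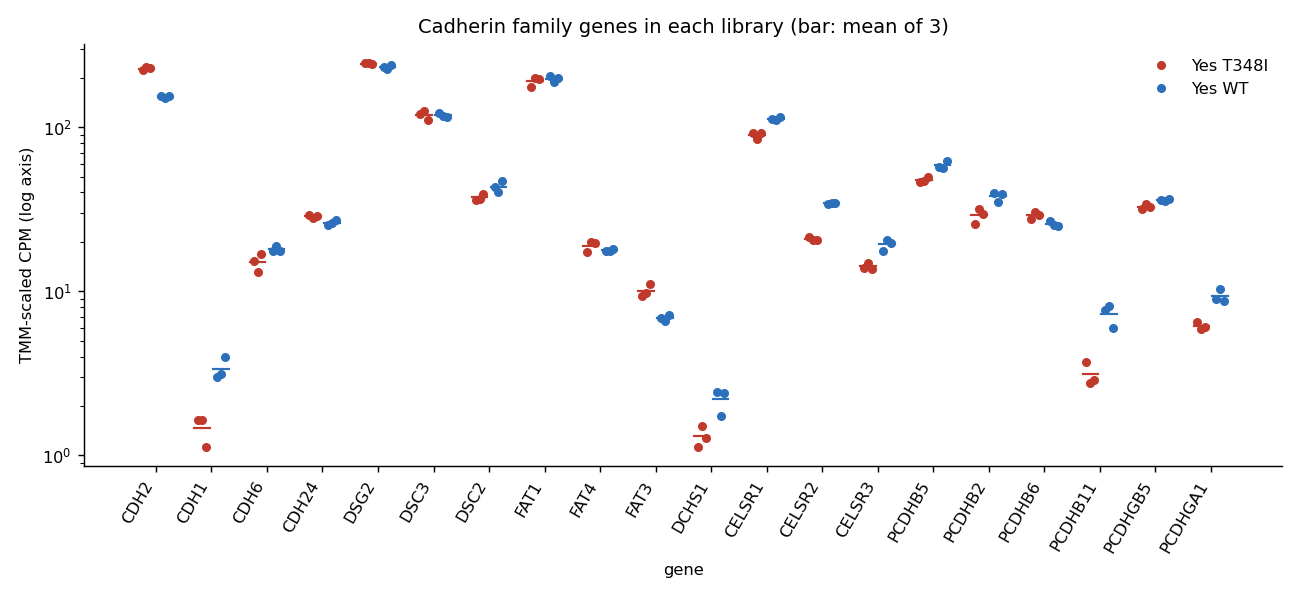
CPM (vertical, log axis) of 20 cadherin family genes in each library, Yes T348I in red left of Yes WT in blue, with a bar at the mean of 3. CDH2 and FAT3 sit higher in Yes T348I and CDH1, the CELSR genes and PCDHB11 lower, while DSC3 and FAT1 overlap.

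The desmosomal cadherins differed little in level. DSG2, the desmoglein of simple epithelia, had 246, 245 and 241 CPM in Yes T348I and 234, 227 and 241 CPM in Yes WT. The lowest Yes T348I library (241.3 CPM) lay just above the highest Yes WT library (241.1 CPM), and DSG2 did not pass (log2 fold change 0.06, SE 0.03, adjusted p = 0.11). It passed with no low-count filter (log2 fold change 0.09, adjusted p = 0.0496). DSC3, a desmocollin, had 121, 125 and 111 CPM in Yes T348I and 122.5, 116 and 116 CPM in Yes WT (log2 fold change 0.01, SE 0.04, adjusted p = 0.87). DSC2, the more widely used desmocollin, fell slightly, with 36.2, 36.3 and 39.4 CPM in Yes T348I and 43.0, 40.1 and 46.9 CPM in Yes WT (log2 fold change -0.22, SE 0.06, adjusted p = 0.0013). DSC3 (from 30990008), DSC2 (from 31058840) and DSG2 (from 31498043) lie on chromosome 18 as CDH2 does, and of these 4 genes CDH2 is the 1 with a higher call.

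Among the giant cadherins, the 3 CELSR genes were lower in Yes T348I and FAT3 was higher. CELSR proteins, with DCHS1 and FAT4, act in planar polarity, the alignment of cells within a sheet. CELSR1 (chromosome 22) had 92.0, 84.3 and 92.3 CPM in Yes T348I and 112, 111 and 115 CPM in Yes WT (log2 fold change -0.33, SE 0.04, adjusted p = 6.18e-09). CELSR2 (chromosome 1) had 21.5, 20.4 and 20.4 CPM in Yes T348I and 34.2, 34.5 and 34.6 CPM in Yes WT (log2 fold change -0.72, SE 0.06, adjusted p = 4.10e-13), that is 39.4% lower. CELSR3 (chromosome 3) had 13.9, 14.8 and 13.8 CPM in Yes T348I and 17.5, 20.6 and 19.7 CPM in Yes WT (log2 fold change -0.44, SE 0.08, adjusted p = 1.10e-05). None of the 3 genes had overlapping groups, nor did 59.5% of all genes tested.

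FAT3 (chromosome 11, 92352096 to 92896470) had 9.33, 9.81 and 11.1 CPM in Yes T348I and 6.91, 6.58 and 7.16 CPM in Yes WT (log2 fold change 0.54, SE 0.11, adjusted p = 5.08e-05). FAT1, with 11.8 CPM per kilobase in Yes T348I and 12.2 in Yes WT, did not pass, with 175, 199 and 196 CPM in Yes T348I and 205, 189 and 200.2 CPM in Yes WT (log2 fold change -0.06, SE 0.04, adjusted p = 0.18). It passed as lower with upper quartile scaling (log2 fold change -0.10, adjusted p = 0.025), with library size alone (-0.10, adjusted p = 0.033) and without Yes T348I replicate 2 (-0.10, adjusted p = 0.036). FAT4 did not pass either (17.2, 19.9 and 19.6 CPM in Yes T348I, 17.5, 17.7 and 18.0 CPM in Yes WT, adjusted p = 0.37). DCHS1, whose product is the ligand of FAT4, was low and fell, with 1.13, 1.51 and 1.27 CPM in Yes T348I and 2.44, 1.73 and 2.41 CPM in Yes WT (log2 fold change -0.77, SE 0.24, adjusted p = 0.0055). FAT2 had no count in any library, which allows up to 0.153 to 0.208 CPM in a Yes T348I library and 0.186 to 0.209 in a Yes WT library (3 counts of its total, for counting error only).

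Most of the tested clustered protocadherins were lower in Yes T348I. They are 15 alpha, 16 beta and 22 gamma genes, of which 33 were tested. Of the 33, 19 (57.6%) were lower and 1 was higher, where 27.3% of all genes tested were lower. Of the 33 log2 fold changes, 32 were below 0, as were 7576 of the 14723 over all genes tested. The 33 genes share libraries and a region of chromosome 5 and are not independent. Each gene of the alpha and gamma clusters has its own first exon and is spliced to constant exons shared by its cluster, 2866 exon bases shared in PCDHA1 and 2181 in PCDHGA1. Reads on shared exons fit several genes and were not counted for any, so the counts stand mainly for the first exons and the values of single genes are uncertain to that extent. Beta genes have no shared constant exons, but some are close copies of each other, among them PCDHB8 and PCDHB16, and reads that map to several places were not counted. In all, 46 of the 100 family members share exon bases with another gene on their strand, most of them genes of the alpha and gamma clusters.

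Summed over the cluster, beta genes had 227, 234 and 234 CPM in Yes T348I and 294, 280.4 and 292 CPM in Yes WT. The groups did not overlap (log2 fold change -0.32, SE 0.03, adjusted p = 5.32e-11), that is 19.9% lower. Gamma genes had 155, 159 and 166 CPM in Yes T348I and 186.5, 181 and 183 CPM in Yes WT (log2 fold change -0.20, SE 0.04, adjusted p = 7.73e-06). Alpha genes were scarce, with 6.20, 4.66 and 4.65 CPM in Yes T348I and 6.97, 7.61 and 6.56 CPM in Yes WT (log2 fold change -0.42, SE 0.13, adjusted p = 0.0064). None of the 3 sums had overlapping groups. None passed against a minimum change of 1.2-fold (adjusted p = 0.15 for alpha, 0.056 for beta and 1 for gamma). The ratio of beta to gamma counts was 1.45 ± 0.0319 in Yes T348I and 1.57 ± 0.0231 in Yes WT (SD, n = 3 each, exact two-sided permutation p = 0.10, the smallest possible).

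Within the beta cluster (chromosome 5, 141051135 to 141249365, plus strand), 15 of the 16 genes were tested, 13 were lower, 1 was higher and 1 did not pass. The shares were 86.7% lower and 6.67% higher, beside 27.3% lower and 28.0% higher over all genes tested. PCDHB11 changed most, with 3.69, 2.74 and 2.89 CPM in Yes T348I and 7.70, 8.10 and 5.95 CPM in Yes WT (log2 fold change -1.19, SE 0.15, adjusted p = 6.16e-09). PCDHB15, the last gene of the cluster, had 3.33, 3.09 and 3.24 CPM in Yes T348I and 6.60, 5.19 and 6.49 CPM in Yes WT (log2 fold change -0.92, SE 0.15, adjusted p = 1.10e-06). PCDHB5, the best expressed, had 46.1, 47.2 and 49.8 CPM in Yes T348I and 57.0, 56.3 and 62.6 CPM in Yes WT (log2 fold change -0.30, SE 0.05, adjusted p = 3.18e-06). The groups did not overlap for any of these 3 genes, nor for 59.5% of all genes tested.

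Of the other genes of the cluster, PCDHB7 had 10.2, 7.82 and 8.95 CPM in Yes T348I and 14.1, 13.0 and 14.1 CPM in Yes WT (log2 fold change -0.59, SE 0.10, adjusted p = 1.88e-06). PCDHB10 had 8.56, 9.81 and 7.83 CPM in Yes T348I and 13.2, 13.6 and 12.2 CPM in Yes WT (log2 fold change -0.58). PCDHB14 had 7.95, 9.74 and 9.45 CPM in Yes T348I and 14.3, 12.7 and 12.2 CPM in Yes WT (log2 fold change -0.55). These 3 genes had similar levels and similar changes, and in each all Yes T348I libraries lay below all Yes WT libraries.

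The better expressed PCDHB2 had 25.7, 31.9 and 29.5 CPM in Yes T348I and 39.7, 35.0 and 39.0 CPM in Yes WT (log2 fold change -0.40, SE 0.07, adjusted p = 1.99e-06). PCDHB8 had 33.6, 29.6 and 32.8 CPM in Yes T348I and 38.4, 39.2 and 39.1 CPM in Yes WT (log2 fold change -0.28). PCDHB16 had 14, 17.1 and 14.7 CPM in Yes T348I and 18.9, 19.4 and 18.7 CPM in Yes WT (log2 fold change -0.32). None of these 3 had overlapping groups, and PCDHB13 was lower too (log2 fold change -0.24, adjusted p = 0.0012).

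PCDHB4, PCDHB9 and PCDHB12 passed by less, and none of them passed with DESeq2 (adjusted p = 0.10, 0.053 and 0.081). PCDHB4 (log2 fold change -0.65, adjusted p = 0.022) no longer passed without Yes T348I replicate 3 (adjusted p = 0.0999) or Yes WT replicate 3 (0.078). PCDHB9 (-0.48, adjusted p = 0.0099) no longer passed without Yes T348I replicate 2 (0.065) or Yes WT replicate 1 (0.057), and PCDHB12 (-0.28, adjusted p = 0.016) without Yes T348I replicate 3 (0.11) or Yes WT replicate 3 (0.095). PCDHB3 (-0.27) did not pass (adjusted p = 0.090), but did without Yes T348I replicate 1 (0.042) or Yes WT replicate 1 (0.040).

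The size of the change varied with level. The 10 beta genes with a Yes WT mean under 20 CPM had log2 fold changes of -1.19 to -0.27 with a median of -0.56. The 5 genes of at least 20 CPM had log2 fold changes of -0.40 to 0.17 with a median of -0.28. Across the 15 genes, which share libraries and a locus, and with Yes WT values in both measures, the Spearman correlation of Yes WT level and log2 fold change was 0.50, given as a description.

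PCDHB6 was the beta gene higher in Yes T348I. It had 27.4, 30.4 and 29.3 CPM in Yes T348I and 26.8, 25.2 and 25.1 CPM in Yes WT, without overlap (log2 fold change 0.17, SE 0.06, adjusted p = 0.023). The call was lost with upper quartile scaling (log2 fold change 0.13, adjusted p = 0.086), with library size alone (0.13, 0.080), with DESeq2 (0.17, 0.087) and without Yes T348I replicate 2 (0.14, 0.084) or 3 (0.17, 0.054) or Yes WT replicate 2 (0.16, 0.072) or 3 (0.15, 0.081). As a share of the beta cluster's counts, which needs no scaling between libraries, PCDHB6 made up 12.1%, 13.0% and 12.5% in Yes T348I and 9.13%, 8.98% and 8.58% in Yes WT. Such a share also rises when the other genes of the cluster fall. Without PCDHB6 the cluster summed to a mean of 202.5 CPM in Yes T348I and 263.1 CPM in Yes WT. The share is therefore no separate evidence of more PCDHB6 RNA. PCDHB11 made up 1.63%, 1.17% and 1.24% in Yes T348I and 2.62%, 2.89% and 2.04% in Yes WT. Both shares gave an exact two-sided permutation p of 0.10, the smallest possible, and both genes were chosen for it after their values were seen. PCDHB5 held 20.6% ± 0.604 in Yes T348I and 20.3% ± 1.04 in Yes WT (SD, n = 3 each, exact permutation p = 0.70).

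The beta genes share more than a locus. Promoters of the clustered protocadherins are known to carry a conserved element with the core letters CGCT, which the insulator protein CTCF binds. RefSeq promoters (GRCh38.p14, 250 bases before the annotated start to 50 after it) were at hand for 77 of the 100 members, including 14 of the 16 beta genes (all but PCDHB6 and PCDHB11). All 14 held CGCT on either strand, but so did 70.0% of all 35116 promoters. The run GTGGCGCT ends in those letters and was picked from these same promoters because many of them share it. It stood in 13 of the 14 and in 1.15% of all promoters on either strand. It began 1 to 83 bases before the annotated start. The exception, PCDHB1, had no count in any library. The promoter of PCDHB5 (chr5:141134956-141135255, plus strand), the best expressed beta gene, is shown whole with the run in capitals.

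PCDHB5 promoter: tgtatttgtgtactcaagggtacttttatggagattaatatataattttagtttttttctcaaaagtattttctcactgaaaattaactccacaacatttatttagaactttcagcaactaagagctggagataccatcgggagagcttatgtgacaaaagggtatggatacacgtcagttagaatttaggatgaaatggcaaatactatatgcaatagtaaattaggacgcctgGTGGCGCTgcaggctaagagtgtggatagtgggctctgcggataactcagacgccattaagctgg

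The 12 bases on each side of the run are set side by side for the 13 genes in their order along the chromosome, 5′ to 3′ on the plus strand, since the shared letters extend past it. Their promoters lie between positions 141094365 and 141245444 of chromosome 5. The capitals mark GTGGCGCT.
PCDHB2: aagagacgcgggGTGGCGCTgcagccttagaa
PCDHB3: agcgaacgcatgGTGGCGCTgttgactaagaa
PCDHB4: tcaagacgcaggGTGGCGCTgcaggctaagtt
PCDHB5: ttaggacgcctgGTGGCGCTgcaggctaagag
PCDHB7: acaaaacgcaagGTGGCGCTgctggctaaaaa
PCDHB8: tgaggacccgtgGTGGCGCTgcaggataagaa
PCDHB16: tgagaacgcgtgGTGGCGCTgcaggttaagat
PCDHB9: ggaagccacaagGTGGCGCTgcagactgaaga
PCDHB10: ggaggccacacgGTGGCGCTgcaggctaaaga
PCDHB12: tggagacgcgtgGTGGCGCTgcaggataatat
PCDHB13: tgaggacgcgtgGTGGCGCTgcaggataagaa
PCDHB14: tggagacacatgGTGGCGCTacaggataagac
PCDHB15: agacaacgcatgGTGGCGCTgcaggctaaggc

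The letters are a description of these windows and show no binding. TATAAA was in 1 of the 14 beta promoters and in 11.5% of all promoters, and CACGTG was in none of the 14 and in 7.26% of all.

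Of the 22 gamma genes 15 were tested, 6 (40.0%) were lower and none was higher. Over all genes tested, 27.3% were lower and 28.0% higher. All 15 log2 fold changes were below 0, as were 7576 of the 14723 over all genes tested. PCDHGA1, the first gene of the cluster, had 6.51, 5.90 and 6.06 CPM in Yes T348I and 8.98, 10.3 and 8.76 CPM in Yes WT (log2 fold change -0.59, SE 0.11, adjusted p = 2.21e-05). PCDHGB4 had 23.6, 23.7 and 26.2 CPM in Yes T348I and 28.4, 29.4 and 27.9 CPM in Yes WT (log2 fold change -0.23, SE 0.06, adjusted p = 0.0026). Neither gene had overlapping groups, nor did 59.5% of all genes tested. PCDHGA4, level with PCDHGB5 at the top of the gamma genes per kilobase (12.6 CPM in Yes T348I and 13.3 in Yes WT), overlapped between the lines, with 33.5, 32.6 and 36.1 CPM in Yes T348I and 35.2, 36.3 and 36.4 CPM in Yes WT (adjusted p = 0.25).

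The other gamma calls were each lost when some single library was left out. PCDHGA6 (log2 fold change -0.88, adjusted p = 0.0064) did not pass without Yes T348I replicate 3 (log2 fold change -0.58, adjusted p = 0.075). PCDHGA2 (-0.20, adjusted p = 0.0099) did not pass without Yes T348I replicate 1 (0.085) or Yes WT replicate 3 (0.061). PCDHGB1 (-0.26, adjusted p = 0.019) did not pass without Yes T348I replicate 1 (log2 fold change -0.19, adjusted p = 0.13) or Yes WT replicate 1 (-0.16, 0.22). PCDHGB5 (-0.14, adjusted p = 0.040) did not pass without Yes T348I replicate 1 (0.19) or 3 (0.11) or Yes WT replicate 1 (0.080), 2 (0.060) or 3 (0.12). PCDHGA2, PCDHGB1 and PCDHGB5 did not pass with DESeq2 either (0.061, 0.10 and 0.15) or with no low-count filter (0.052, 0.0504 and 0.21), nor did PCDHGB1 on unstranded counts (0.17). PCDHGA3 (-0.18), which did not pass, did so with upper quartile scaling (-0.22, adjusted p = 0.049).

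Gamma promoters carried another run, GCCGCTGT, which holds the letters CGCT too. It was picked in the same way, was in 13 of the 25 promoters of 20 gamma genes, and stood in none of the beta promoters and in 1.63% of all promoters. The run was also in 1 of the 2 promoters of CDH2, a gene higher in Yes T348I. Of the tested gamma genes it was in 4 of the 6 that were lower and in 5 of the 9 with no call, PCDHGA7, PCDHGA8, PCDHGA9, PCDHGB6 and PCDHGC3. It is shown for the 4 lower genes.
PCDHGA1: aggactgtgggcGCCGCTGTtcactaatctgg
PCDHGB1: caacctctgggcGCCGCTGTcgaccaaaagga
PCDHGB4: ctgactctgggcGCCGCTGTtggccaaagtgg
PCDHGB5: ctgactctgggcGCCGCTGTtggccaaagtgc

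Here the capitals mark GCCGCTGT. The promoters shown lie between positions 141330264 and 141397996 of chromosome 5, and PCDHGB4 and PCDHGB5 each have a second promoter entry without the run. The lower genes PCDHGA2 and PCDHGA6 do not hold it in these windows.

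Of the 15 alpha genes, PCDHA1, PCDHA4 and PCDHA7 were tested and none passed (adjusted p of 0.35, 0.069 and 0.22). PCDHA4 had 0.564, 0.274 and 0.211 CPM in Yes T348I and 0.672, 0.761 and 0.669 CPM in Yes WT. It passed without Yes T348I replicate 1 (log2 fold change -1.48, adjusted p = 0.019) and with limma-voom (-0.99, adjusted p = 0.032). The 13 protocadherins outside the clusters were not tested, and PCDH1 reached the highest count of them, 16 in 1 Yes WT library. Of the 8 members with no count in any library, CDH7, FAT2, PCDH8, PCDH18, PCDH20 and PCDHB1 are on autosomes.

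Of the 9 tested protein-coding genes beside or between the clusters, 2 were higher, 2 were lower and 5 did not pass. Over all genes tested, 28.0% were higher and 27.3% lower. TAF7, which encodes a subunit of the general transcription factor TFIID and lies between the beta and gamma clusters on the minus strand, had a mean of 148 CPM in Yes T348I and 144 CPM in Yes WT (log2 fold change 0.04, SE 0.04, adjusted p = 0.36). On the alpha side, ZMAT2 (0.07), HARS2 (-0.02) and DND1 (-0.42, adjusted p = 0.29) did not pass and HARS1 was higher (0.32, SE 0.04, adjusted p = 8.14e-09). On the gamma side, DIAPH1, which encodes an actin-nucleating formin, was higher (0.28, SE 0.04, adjusted p = 1.25e-08) and HDAC3 (0.09) did not pass, while RELL2 (-0.42) and FCHSD1 (-0.80), the next ones out, were lower. A noncoding RNA on the plus strand just before PCDHGA1 (ENSG00000272070) was lower too (-0.44, SE 0.12, adjusted p = 0.0015). These genes were chosen by position after the members' values were known.

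The partners of cadherins inside and beside the membrane moved in both directions. Of 70 such genes, 54 were tested, 17 were higher and 18 lower (31.5% and 33.3%, beside 28.0% and 27.3% over all genes), and the median of their log2 fold changes was -0.02. Of the 6 tested catenin genes, 1 was higher and 3 lower. JUP (plakoglobin), the catenin that both classical and desmosomal cadherins bind, had 67.8, 59.7 and 54.2 CPM in Yes T348I and 189, 187 and 193 CPM in Yes WT. Its change was the largest among these partners (log2 fold change -1.64, SE 0.05, adjusted p = 6.07e-29). CTNNB1 (beta-catenin) had 281, 277 and 273 CPM in Yes T348I and 327, 329 and 338 CPM in Yes WT (log2 fold change -0.26, SE 0.03, adjusted p = 5.01e-09). ARVCF fell by 0.73, and CTNNAL1, an alpha-catenin relative, rose by 0.71 (SE 0.03, adjusted p = 5.67e-21). CTNNA1 (alpha-catenin, 0.03) and CTNND1 (p120-catenin, -0.00071) did not pass, with adjusted p of 0.47 and 0.99.

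Of 6 tested desmosome genes, 2 were higher and 3 lower (33.3% and 50%, beside 28.0% and 27.3% over all genes). The plakophilin genes split, since PKP2 (59.0, 56.7 and 54.9 CPM in Yes T348I, 25.9, 25.8 and 28.6 CPM in Yes WT) and PKP4 rose, at log2 fold changes of 1.09 for PKP2 and 0.58 for PKP4, and PKP3 fell by 0.64. DSP, the desmoplakin gene, had 49.8, 51.9 and 48.9 CPM in Yes T348I and 73.9, 70.9 and 70.2 CPM in Yes WT (log2 fold change -0.51, SE 0.05, adjusted p = 1.51e-12). PERP, a desmosomal membrane protein gene, fell by 0.67 (SE 0.03, adjusted p = 4.31e-21). Of the desmosomal cadherins, DSC2 was lower as DSP and PERP were, and DSG2 and DSC3 did not pass.

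Of 12 tested nectin and linker genes, 6 were higher and 2 lower (50% and 16.7%, beside 28.0% and 27.3% over all genes). PVR, a nectin-like receptor, rose by 0.87 (SE 0.04, adjusted p = 2.96e-23), VCL (vinculin) by 0.45 (SE 0.03) and TJP1 (ZO-1) by 0.30 (SE 0.04). Of 13 planar polarity genes, 4 were higher and 4 lower (30.8% each), near the shares over all genes. The core genes PRICKLE1, VANGL1 and PRICKLE2 rose by 0.45, 0.32 and 0.41 (SE 0.07, 0.05 and 0.07), and the receptor gene FZD6 rose by 0.21 (SE 0.05). The receptor gene FZD3 fell by 0.23 (SE 0.07), FJX1 by 0.14 (SE 0.04), ANKRD6 by 0.28 (SE 0.09) and FUZ, at 1.29 CPM in Yes T348I and 2.41 CPM in Yes WT, by 0.88 (SE 0.24). Of 12 genes for processing and turnover, 3 were higher and 4 lower (25.0% and 33.3%), near those shares too. ADAM10, the sheddase of E- and N-cadherin, did not pass (log2 fold change -0.01, adjusted p = 0.86), NUMB fell by 0.48 (SE 0.04), and ADAM9 rose by 0.30 (SE 0.03). Of 5 tested cadherin-related genes, the calsyntenins split, with CLSTN2 higher (0.56, SE 0.07) and CLSTN3 lower (-0.69, SE 0.06), and RET, at 0.581 CPM in Yes T348I and 1.44 CPM in Yes WT, was lower.

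Marker genes were read beside these results, CDH1 and CDH2 being members of the epithelial and mesenchymal lists. Of 9 hepatocyte markers 4 were tested, and the summed level of the list was 54.0 to 56.7 CPM in Yes T348I and 64.2 to 69.5 CPM in Yes WT, mostly FGB, while ALB, APOA1, APOB, TTR and HNF4A had too few counts to be tested. All 5 mesenchymal markers were tested, at 7385 to 7729 CPM in Yes T348I and 7116 to 7161 CPM in Yes WT, mostly VIM. ZEB1 (0.32) and SNAI2 (1.45) of that list were higher, as CDH2 was, and FN1 was lower (-0.39). Of 6 epithelial markers 4 were tested, at 412 to 452 CPM in Yes T348I and 424 to 441 CPM in Yes WT, with KRT8 and KRT18 not passing and GRHL2 at 0. ESRP1 of that list had 5, 6 and 6 counts in Yes T348I and 15, 11 and 19 counts in Yes WT, and it passed the low-count filter through Yes WT alone. Of 5 cholangiocyte markers 3 were tested, at 712.5 to 799 CPM in Yes T348I and 397 to 428 CPM in Yes WT, mostly KRT7. Of 7 stellate cell and fibroblast markers 4 were tested, at 825 to 881 CPM in Yes T348I and 1102 to 1164 CPM in Yes WT, mostly COL1A2, with DCN, LUM and PDGFRB near 0. The tested genes of this list split, since COL1A2 (-0.63) and ACTA2 (-0.56) were lower, and COL1A1 (0.15) and RGS5 (0.14) were higher. Endothelial markers summed to at most 0.564 CPM in Yes T348I and 1.53 CPM in Yes WT, with TEK and CLDN5 at 0, and leukocyte markers to at most 1.33 CPM in Yes T348I and 3.08 CPM in Yes WT, with CD3E at 0. The part of the lists that moved in the results was not tested.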

How the data were processed

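The deposited values are raw read counts per gene, made by the authors, in 1 file per library. Each file has counts for unstranded, forward and reverse reading. The versions in the submitters' processing notes are STAR 2.5.1b, Trimmomatic 0.35 and CASAVA 1.8.2, with GRCh38 as the build, and the annotation release was not given in the sources used here. Counts of the reverse strand were analysed, as the kit keeps strand per the labels' protocols. The forward column came to 6.13% to 6.59% of its total. Summary lines that name no gene stayed out of library sizes (shares of reads on no exon are given with the results). Reads fitting several genes were 3.11% to 3.15% of uniquely mapped reads, and multi-mapped reads are not in the gene counts.

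Symbols came from a gene name table (41844 of 58219 identifiers matched, and all 100 members), gene types, positions and exon lengths from GENCODE 29. The test was that of edgeR 4.0.16 in R 4.3.3 (filterByExpr, minimum count 10; TMM; quasi-likelihood F-test; Benjamini-Hochberg over 14723 genes, threshold 0.05), checked first on simulated data. Cluster totals were fitted with each cluster summed into 1 row. CPM are TMM-scaled, and levels per kilobase use exon bases no other gene on the strand shares. Shares and ratios were compared by exact permutation tests (scipy 1.17.1). Alternatives used DESeq2 1.42.0, limma 3.58.1, other scalings, no filter, unstranded counts and single libraries left out. No 2 libraries of a line agreed within counting noise (chi-square per degree of freedom 1.48 to 5.27).

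The members and lists were chosen with earlier results of these data known. Named genes are the 16 members of lowest adjusted p, CDH1, CDH2, the 5 of highest level per length and up to 4 partners per role; others named stand outside that rule. Protein sequences were not used here, and some genes that the lists hold are not reported here by name.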

Additional observations from a re-analysis of the deposited data

How the results depend on the processing

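Of the 29 members called, 13 kept their direction and their side of the threshold under all 15 alternatives, and 20 under all but the minimum change of 1.2-fold; no called member changed sign. Against that minimum change, edgeR called 14 members (12 lower), 19 partners (10 higher, 9 lower) and 3229 of all genes (1394 higher, 1835 lower), and the cluster totals no longer passed, at log2 fold changes of -0.417 (alpha), -0.320 (beta) and -0.198 (gamma). DESeq2 called 2 members higher and 20 lower, and with 1 library left out edgeR called 2 to 3 higher and 22 to 25 lower. Counted gene by gene, the median of the tested beta genes was -0.398, further from 0 than the -0.320 of their sum, where genes of high level weigh most. Beyond these, the counts of called genes stayed within 1.5 times. Scaling moved the median of all genes by at most 0.0405 on the log2 scale.

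The lines share replicate numbers, but same-numbered libraries did not deviate together (correlations of -0.0366 to 0.00433 across genes). Each library was centred on the mean of the 3 of its line, so this check is weak and cannot exclude shared batches. With the replicate number as a block, 3 members were higher and 26 lower, and all 29 calls were kept. PCDHA4, PCDHGA6, CDH3 and DCHS1 had SE of 0.24 to 0.42, so that for them a change of the size seen in PCDHB5 (-0.30) was not detectable at this depth. The same held for PCDHGA9 (SE 0.37), PCDHGA7 (0.31), PCDHGB6 (0.29), PCDHGA5 (0.29), PCDHA7 (0.27), PCDHA1 (0.26) and PCDHB4 (0.24). It held too for PCDHGA8 (SE 0.22), PCDHGB2 (0.22) and CDH1 (0.21), among others.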

Other observations

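Most pseudogenes and antisense RNAs of the cadherin loci had few or no counts. PCDHB17P, which lies between PCDHB6 and PCDHB7, had 80, 58 and 62 counts in Yes T348I and 62, 67 and 53 counts in Yes WT and did not pass (log2 fold change 0.06, SE 0.15, adjusted p = 0.77). PCDHB18P, between PCDHB14 and PCDHB15, had 20, 20 and 17 counts in Yes T348I and 29, 22 and 27 counts in Yes WT (log2 fold change -0.52, SE 0.25, adjusted p = 0.077). The pseudogene CELSR1P1 had 14, 12 and 7 counts in Yes T348I and 23, 18 and 13 counts in Yes WT (log2 fold change -0.78, SE 0.32, adjusted p = 0.038). DSG2-AS1 had no count in any library, and PCDHB1-AS1 had at most 4.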
